A study of Mus musculus with 5 samples.

Results

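The TGF-beta, BMP and activin pathway was followed through 48 genes in mature 3T3-L1 adipocytes: 12 ligands, 13 receptors and co-receptors, 7 antagonists, 4 latent TGF-beta binding proteins, 8 SMADs and 4 ID genes. The genes were taken by symbol, as probe sets whose single gene symbol in the platform annotation was one of the 48. All 48 were measured, each by 1 probe set, among 22206 probe sets of the Affymetrix Clariom S mouse array. 3T3-L1 is a mouse fibroblast line that becomes fat cells in culture. The exposed group (3 arrays) was differentiated cells kept for 72 h in RPMI-1640 with 10% fetal bovine serum while human MM.1S myeloma cells shared the medium through a transwell membrane with 0.4 µm pores. The control group (2 arrays) had the same differentiation and the same 72 h in that medium with no myeloma cells. Differentiation was the same in both groups and followed 4 days in basal medium. It began with 4 days of IBMX (0.5 mM), dexamethasone (1 µM) and insulin (5 µg/mL). For 2 further days insulin was the only addition, and 1 day without additions followed. All cells came from 1 line, and the labels do not say that the arrays of a group came from separate cultures, so the p-values reflect variation among these 5 samples that could be purely technical. In bulk RNA such as this, fewer cells of a type and less RNA per cell cannot be told apart. The array measured RNA only, so ligand protein from serum or from the human cells was not measured.

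Members of this family are secreted dimers. A ligand brings together type II and type I receptors, which are kinases, and the type I receptor phosphorylates SMAD proteins that enter the nucleus with Smad4. TGF-beta and activin signal mainly through Smad2 and Smad3 and are known to hold back fat cell formation, whereas BMP signals run through Smad1, Smad5 and Smad9, and BMP4 is known to commit mesenchymal cells to the adipocyte lineage. Secreted antagonists bind the ligands, inhibitory SMADs damp the signal, and the ID genes are classical targets of BMP signalling.

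Values are log2 expression values made by RMA. The number of arrays, 5, limits the precision of every value. Each difference is the exposed mean minus the control mean (log2), followed by its 95% limma interval. A probe set below 4.81, the median of all probe set means, is called dim here, because RMA compresses differences between dim signals and the table has no detection calls. Of the 48 genes 15 were dim. An exactly repeated value on at least 2 arrays was found for 8 of the 48 genes (16.7%), against 27.2% of all probe sets. The 8 were Inhbb, Bmp7, Acvr1c, Acvr2a, Fst, Fstl1, Ltbp2 and Smad7. Most adipocyte markers were not dim. Pparg, the master regulator of fat cells, averaged 10.99 ± 0.050 on exposed arrays and 10.97 ± 0.024 on control arrays (SD, n = 3 and 2), and only Lep of the 8 markers was dim. For each of the 8, a 2-fold difference lay outside the interval, as it did for 92.9% of all probe sets. Of 6 measured preadipocyte and fibroblast markers, 3 were dim, while Dlk1, Thy1 and Col1a1 averaged 10.45, 9.30 and 8.55 over the 5 arrays. How much undifferentiated cells added to the values of the 48 genes was not tested.

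The genes shown first were picked for display, and none had a limma adjusted p under 0.05. Their promoters are given as RefSeq windows of GRCm38.p6, from 250 bases before to 50 after an annotated start, 5′ to 3′ on the gene's strand. Bmp4, Bmp5 and Bmpr1a were the 3 members with an unadjusted p under 0.05. Id3 and Smad6 stand for the genes that the pathway itself controls. Capitals mark letters that SMAD proteins are known to bind: GTCTAGAC, a palindrome of 2 SMAD boxes; CAGAC, the core of the CAGA box; and GGCGCC, a GC-rich element. Both strands were searched, and none of the 3 motifs contains another.
Bmp4 promoter, chr14:46390620-46390919, minus strand: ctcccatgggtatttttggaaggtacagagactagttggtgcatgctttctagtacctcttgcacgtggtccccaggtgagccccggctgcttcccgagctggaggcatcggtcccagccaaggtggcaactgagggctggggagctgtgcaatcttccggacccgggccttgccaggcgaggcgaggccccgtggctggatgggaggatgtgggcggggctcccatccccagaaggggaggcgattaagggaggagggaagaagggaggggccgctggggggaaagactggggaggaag
Bmp5 promoter, chr9:75775115-75775414, plus strand: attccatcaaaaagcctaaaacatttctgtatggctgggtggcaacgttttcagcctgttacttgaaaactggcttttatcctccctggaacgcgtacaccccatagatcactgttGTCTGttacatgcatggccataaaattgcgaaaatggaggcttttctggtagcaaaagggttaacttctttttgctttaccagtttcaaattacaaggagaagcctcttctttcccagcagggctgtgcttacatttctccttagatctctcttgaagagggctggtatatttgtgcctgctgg
Bmpr1a promoter, chr14:34502497-34502796, minus strand: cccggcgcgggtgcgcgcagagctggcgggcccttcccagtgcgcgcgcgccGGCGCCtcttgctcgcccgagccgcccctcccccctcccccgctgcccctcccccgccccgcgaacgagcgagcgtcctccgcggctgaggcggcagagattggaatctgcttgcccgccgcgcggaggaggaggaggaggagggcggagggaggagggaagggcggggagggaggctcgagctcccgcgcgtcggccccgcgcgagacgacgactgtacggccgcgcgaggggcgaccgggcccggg
Id3 promoter, chr4:136143572-136143871, plus strand: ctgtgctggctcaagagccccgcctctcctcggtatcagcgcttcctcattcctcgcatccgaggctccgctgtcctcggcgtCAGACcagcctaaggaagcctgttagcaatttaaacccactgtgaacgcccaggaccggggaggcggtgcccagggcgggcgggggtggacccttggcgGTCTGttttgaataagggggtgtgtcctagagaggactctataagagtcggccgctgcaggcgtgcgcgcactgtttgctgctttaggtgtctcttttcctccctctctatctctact
Smad6 promoter, chr9:64022010-64022309, minus strand: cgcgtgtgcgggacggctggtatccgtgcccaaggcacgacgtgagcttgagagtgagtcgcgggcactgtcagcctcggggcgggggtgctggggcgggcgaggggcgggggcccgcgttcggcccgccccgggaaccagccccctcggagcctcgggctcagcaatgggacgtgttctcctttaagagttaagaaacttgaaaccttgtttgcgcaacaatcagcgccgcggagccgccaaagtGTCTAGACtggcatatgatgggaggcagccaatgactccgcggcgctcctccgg
GTCTAGAC lay across the annotated start of Smad6 and in no other of the 43 windows of the members, a share of 2.33% against 0.213% of 32851 promoter windows. CAGAC was present in 19 of the 43 windows (44.2% against 49.6% of all windows), with 2 copies in Id3 and 1 in Bmp5. GGCGCC was present in 12 of the 43 (27.9% against 11.9%), among them those of Bmpr1a, Id2 and Id4. Windows were matched for 34 of the 48 genes. These are matches of letters only, and the Bmp4 window held none of the 3.

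None of the 48 genes passed the test. At an adjusted p under 0.05, limma with Benjamini-Hochberg adjustment over 22206 probe sets called 0 members higher and 0 lower, and the background was 0% in each direction. The smallest adjusted p of a member was 0.93. At an unadjusted p under 0.05 there were 3 members (6.25%), 2 higher and 1 lower, where the background was 3.49% of all probe sets (1.82% higher and 1.68% lower). The median difference of the 48 genes was -0.026, beside -0.0004 for all probe sets, and 28 had a lower and 20 a higher mean on exposed arrays (50.1% of all probe sets were lower). Intervals excluded a 2-fold difference in either direction for 45 of the 48 (93.75%, background 92.9%). The exceptions were Bmpr1a, Eng and Fstl1.

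Exposed and control arrays did not overlap for 15 of the 48 genes (31.25%), against 17.3% of all probe sets. In 5 genes every exposed array lay above both control arrays (background 8.5%), and in 10 every exposed array lay below both (background 8.84%). The 5 were Bmp4, Bmp5, Acvrl1, Nog and Smad7. The 10 were Tgfb3, Bmp6, Bmp7, Bmpr1a, Bmpr1b, Acvr2a, Fst, Grem1, Ltbp1 and Smad2. In 40 of the 48 genes the range over the 3 exposed arrays was wider than the difference between group means, a share close to the background of 81.8%. Among the 15 without overlap it was narrower in Bmp4, Bmp5, Bmp7, Grem1 and Smad7.

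**Figure D1:**
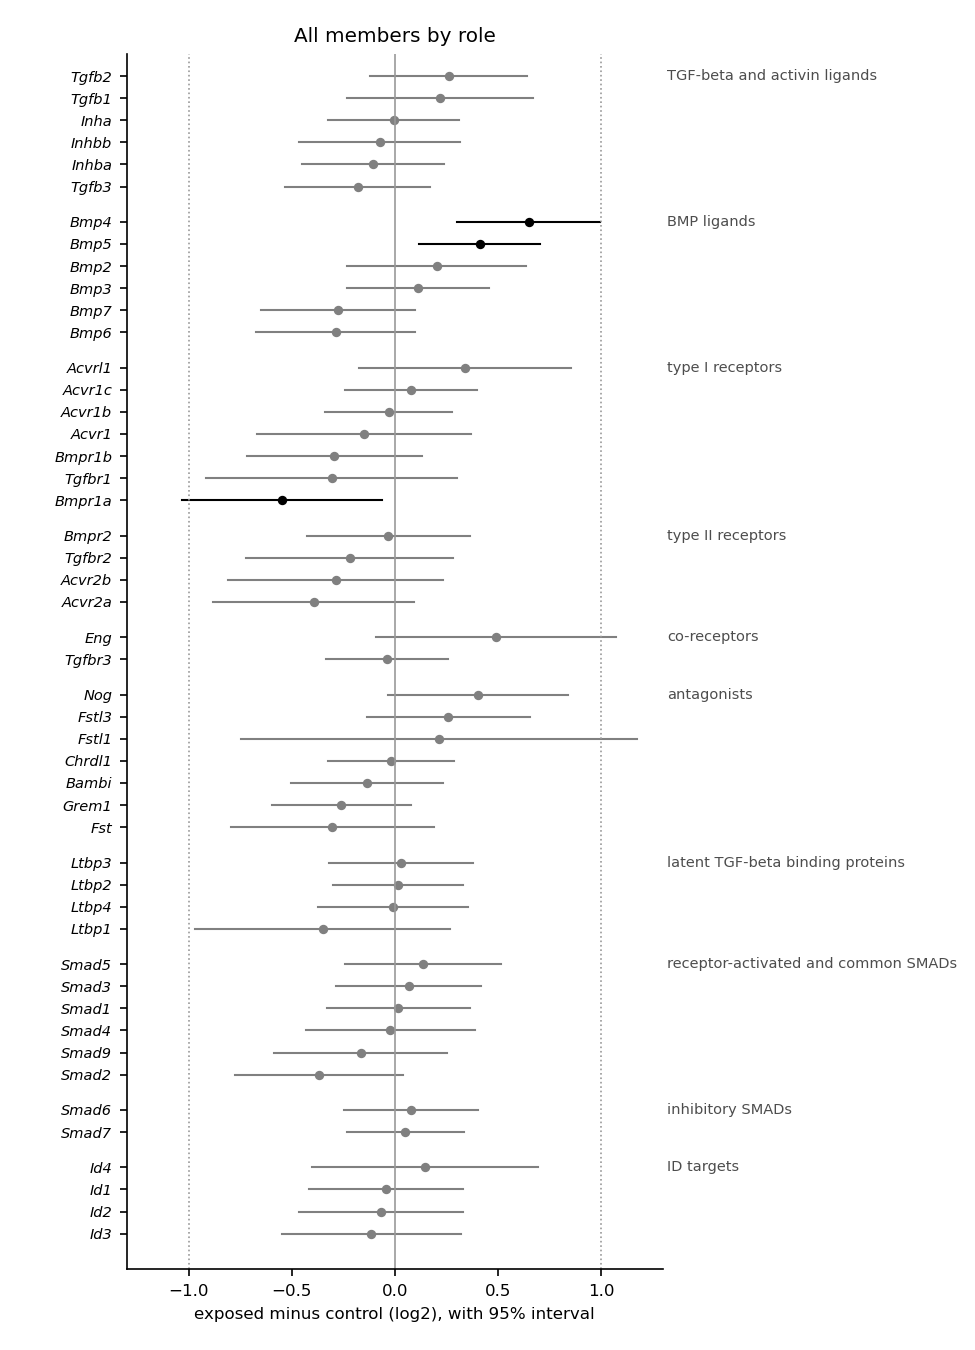
Difference between exposed (n = 3) and control (n = 2) arrays on the log2 scale for all 48 genes, grouped by role, with 95% limma intervals. Black marks the 3 genes with an unadjusted p under 0.05 (Bmp4, Bmp5 and Bmpr1a), grey the others, and dotted lines a 2-fold difference in either direction.

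Bmp4 had the widest difference of the 48 genes. It read 4.23, 4.08 and 4.21 on the exposed arrays, against 3.66 and 3.39 on the controls. All 3 exposed arrays lay close together and above both control arrays. The means were 4.18 ± 0.081 (SD, n = 3) exposed and 3.53 ± 0.19 (SD, n = 2) control, a difference of 0.65 (0.30 to 0.99), or 1.57-fold. The unadjusted p was 0.0035 and limma's adjusted p 0.93. With any single array left out the difference stayed between 0.52 and 0.78 and the unadjusted p between 0.0053 and 0.020. Bmp4 was dim on all 5 arrays.

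Other BMP ligand genes were dim too, and went both ways. Bmp5 read 2.46, 2.48 and 2.52 on exposed arrays, against 2.03 and 2.13 on control arrays, a difference of 0.41 (0.12 to 0.70) with an unadjusted p of 0.014 and a limma adjusted p of 0.93. These values are near the low end of the table. Bmp6, a ligand that controls iron balance through hepcidin in liver, read 3.13, 3.10 and 2.76 on exposed arrays, against 3.33 and 3.24 on control arrays (-0.29, -0.68 to 0.10). Bmp7, known for driving brown fat formation, read 2.20, 2.20 and 2.12, against 2.63 and 2.26 (-0.27, -0.65 to 0.10). In both genes the groups did not overlap, and in both the interval included 0; without control array 1 Bmp7 differed by -0.087. Bmp2, a bone-inducing ligand, differed by 0.20 (-0.23 to 0.64), with control array 2 at 2.54 below the other 4 arrays, and by -0.041 without that array. Bmp3, an atypical ligand that opposes other BMPs, differed by 0.11 (-0.23 to 0.46). In all, 4 of the 6 BMP ligands were higher and 2 lower in mean, with a median of 0.16. Of the 15 dim members 10 were higher, with a median of 0.11. Over all probe sets 11076 of 22206 were higher, and 4873 of the 11103 that were not dim.

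**Figure D2:**
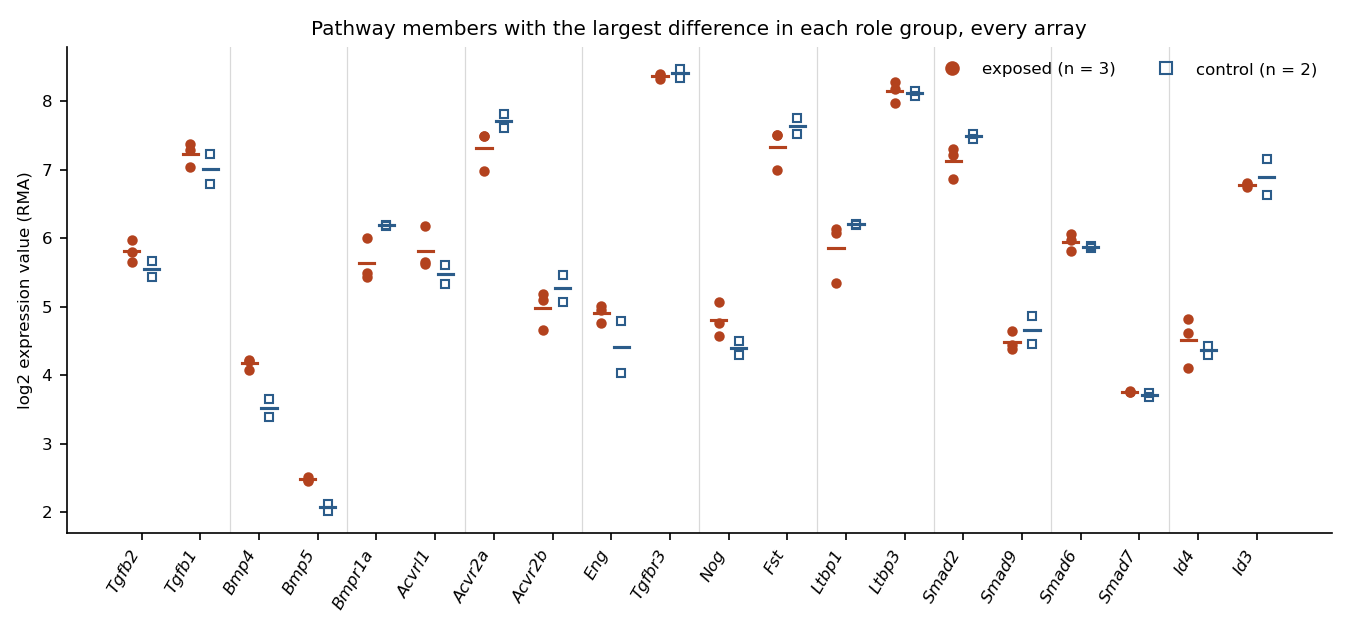
Log2 expression value on every array for the 2 genes with the largest absolute difference in each of 10 role groups. Filled circles are exposed arrays (n = 3), open squares control arrays (n = 2), and bars the group means; Bmp4 and Bmp5 lay above, and Bmpr1a below, both control arrays on every exposed array.

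The TGF-beta and activin ligand genes differed by -0.18 to 0.26. Tgfb1, the most widely expressed TGF-beta, read 7.38, 7.29 and 7.04 on exposed arrays, against 6.80 and 7.23 on control arrays. Control array 1 was the low one, and the difference of 0.22 (-0.23 to 0.67) was 0.0022 without it. Tgfb2, a second isoform, read 5.66, 5.98 and 5.80, against 5.43 and 5.67 (0.26, -0.12 to 0.64), and the groups overlapped at one array each. Tgfb3, the third isoform, read 6.31, 6.07 and 6.38, against 6.46 and 6.41 (-0.18, -0.53 to 0.17), so that it lay the other way with no overlap. Inhbb, which encodes the activin B subunit and is known as an adipocyte product, read 5.87, 5.57 and 5.57, against 5.87 and 5.62 (-0.075, -0.46 to 0.31). Inhba, the activin A subunit gene, differed by -0.11 (-0.45 to 0.24), and Inha, whose product turns activin subunits into inhibin, by -0.0066 (-0.33 to 0.31). Of the 6 genes 2 were higher and 4 lower in mean, with a median of -0.041. All 6 intervals excluded a 2-fold difference (background 92.9%).

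Receptor genes had mostly lower means on exposed arrays. Of the 11 type I and type II receptors 9 were lower, with a median of -0.22, beside a median of -0.0004 with 50.1% lower for all probe sets. Bmpr1b and Acvr1c were dim and the other 9 were not; the 11103 probe sets that were not dim had a median of -0.025, and 6230 of them were lower. The mean deviation of the 11 genes from their 5-array means was -0.068 on the first exposed array, -0.032 on the second and -0.10 on the third, while the controls stood at 0.11 and 0.091. The median was -0.094 without exposed array 3 and -0.14 without control array 1, when 7 of 11 were lower. No set test was made and none of the 11 passed singly.

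Bmpr1a, the type I receptor for BMP2 and BMP4, had the widest difference of the 11 receptors. It read 5.49, 6.01 and 5.44 on exposed arrays, against 6.20 and 6.18 on control arrays. Exposed arrays 1 and 3 were clearly lower, and exposed array 2 lay just under the controls. The means were 5.65 ± 0.31 (SD, n = 3) and 6.19 ± 0.016 (SD, n = 2), a difference of -0.55 (-1.03 to -0.061) with an unadjusted p of 0.033 and a limma adjusted p of 0.93. The unadjusted p was 0.095 without exposed array 1, 0.094 without exposed array 3, 0.14 without control array 1 and 0.13 without control array 2, and 0.0035 without exposed array 2. Bmpr1b, the paralogous BMP receptor, was among the dimmest readings, at 1.81, 1.44 and 1.80 against 1.84 and 2.11 (-0.29, -0.72 to 0.13). Acvr1, a BMP and activin type I receptor, differed by -0.15 (-0.67 to 0.37), with exposed arrays at 5.24, 5.25 and 4.87 and control arrays at 5.54 and 5.00; without control array 1 it was 0.12.

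Tgfbr1, the TGF-beta type I receptor, read 6.39, 6.83 and 7.24 on exposed arrays, against 7.12 and 7.13 on control arrays. Exposed array 1 was low and exposed array 3 above both controls, so the groups overlapped (-0.31, -0.91 to 0.30), and the difference was -0.091 without exposed array 1. Acvr1b, the activin type I receptor, differed by -0.030 (-0.34 to 0.28). Acvr1c encodes ALK7, a receptor of mature adipocytes that restrains fat breakdown. It read 2.56, 2.58 and 2.77, against 2.56 and 2.56, with the same value on 3 of the 5 arrays and no measurable difference at that signal. Acvrl1, a receptor known mainly from endothelium, lay the other way, at 6.18, 5.65 and 5.63 against 5.34 and 5.62. Its difference of 0.34 (-0.17 to 0.85) was 0.16 without exposed array 1, and the lowest exposed array was barely above the higher control array.

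The type II receptors had a median difference of -0.25, and each of the 4 depended on single arrays. Acvr2a, a type II receptor for activins and BMPs, read 7.49, 7.49 and 6.98 on exposed arrays, against 7.82 and 7.61 on control arrays. The groups did not overlap, and the difference was -0.39 (-0.88 to 0.095), or -0.22 without exposed array 3. Its relative Acvr2b read 5.11, 4.66 and 5.19, against 5.08 and 5.47 (-0.29, -0.81 to 0.23), with exposed arrays on both sides of control array 1. Its difference was -0.48 without control array 1 and -0.091 without control array 2. Tgfbr2, the TGF-beta type II receptor, read 6.67, 6.98 and 6.34, against 6.96 and 6.80 (-0.22, -0.72 to 0.28), and exposed array 2 was the highest of all 5. Its difference was -0.38 without exposed array 2 and -0.058 without exposed array 3. Bmpr2, the BMP type II receptor, read 7.85, 8.23 and 8.23, against 8.17 and 8.11 (-0.032, -0.43 to 0.36). Exposed array 1 was the low one, the others lay above both controls, and the difference was 0.092 without it.

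The co-receptors differed from each other. Eng encodes endoglin, a co-receptor of TGF-beta and BMP9 best known from endothelial cells. It read 5.01, 4.76 and 4.96 on exposed arrays, against 4.04 and 4.80 on control arrays, a difference of 0.49 (-0.091 to 1.07) at a dim signal. Control array 1 alone was low: the difference was 0.11 without it and 0.87 without control array 2. Tgfbr3, the betaglycan gene, read 8.33, 8.39 and 8.39, against 8.47 and 8.35 (-0.037, -0.33 to 0.26), with all 5 arrays within a narrow band. All 7 endothelial markers were dim. Their summed level was 19.6 to 19.9 on exposed arrays and 20.0 to 20.1 on control arrays, lower on every exposed array, with 4 of the 7 higher and 3 lower in mean. Their part in the values of Eng and Acvrl1 was not tested.

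**Figure D3:**
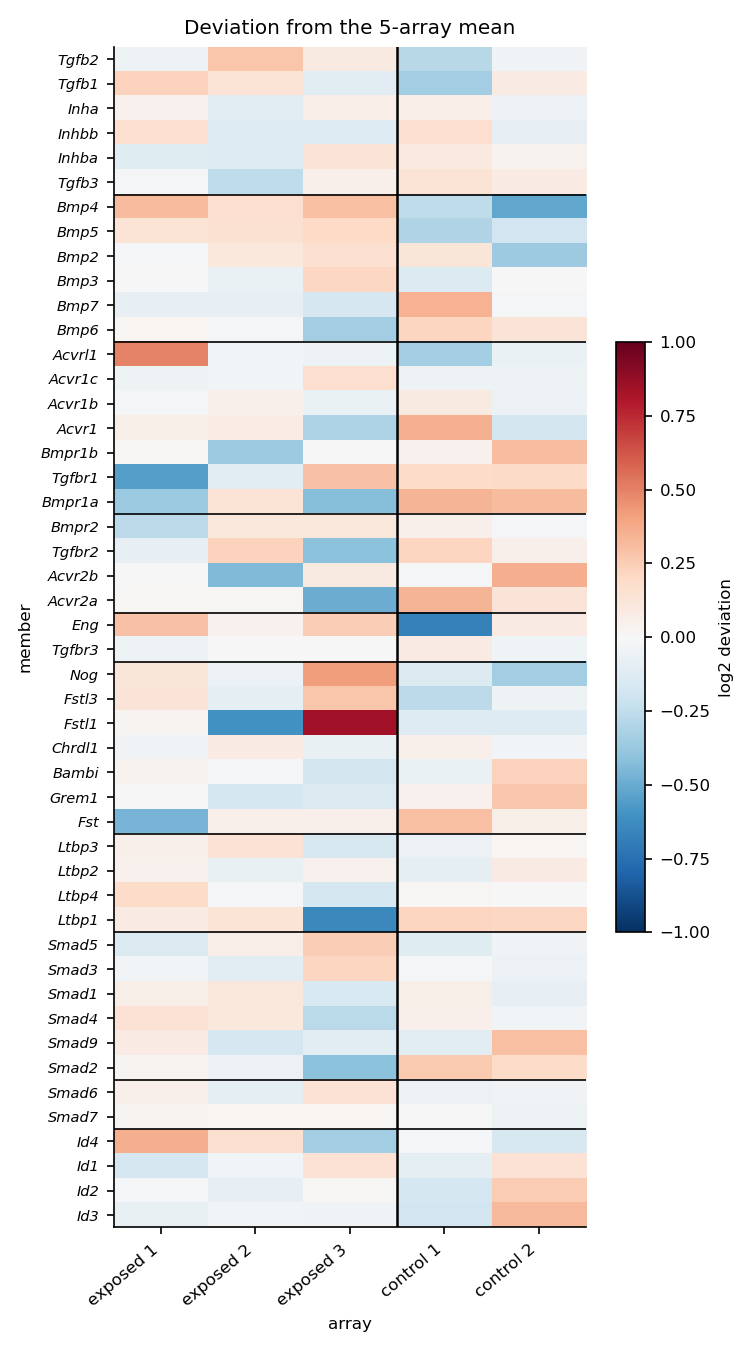
Deviation of each of the 48 genes from its own mean over the 5 arrays (log2; red higher, blue lower), with exposed arrays left of control arrays and role groups separated by lines. The strongest single cells belong to Fstl1 on exposed array 3, Eng on control array 1 and Ltbp1 on exposed array 3.

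Antagonist genes were split, 3 higher and 4 lower in mean, with a median of -0.019. Nog, the noggin gene, whose product binds BMP2 and BMP4, read 4.77, 4.58 and 5.07 on exposed arrays, against 4.51 and 4.30 on control arrays. No exposed array fell among the controls, and the difference was 0.40 (-0.034 to 0.84) at a dim signal. Fst encodes follistatin, which captures activins. It read 7.00, 7.51 and 7.51, against 7.76 and 7.52 (-0.30, -0.80 to 0.19). The groups were separate by a hair between 7.51 and 7.52, and exposed array 1 carried most of the difference, which was -0.13 without it. Grem1, the gremlin gene, a BMP antagonist of mesenchymal cells, read 6.37, 6.20 and 6.23, against 6.41 and 6.64 (-0.26, -0.60 to 0.078), lower on every exposed array.

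Fstl1, a secreted follistatin-like glycoprotein of mesenchymal cells, varied more among exposed arrays than any other of the 48 genes. It read 8.86, 8.22 and 9.67 on the exposed arrays, against 8.70 on both control arrays, an exactly repeated value. The exposed arrays thus lay on both sides of the controls, with a range of 1.45, and the difference of 0.21 (-0.75 to 1.17) was -0.16 without exposed array 3. Fstl3, an activin and myostatin binder, differed by 0.26 (-0.14 to 0.65). Bambi, a decoy receptor without a kinase domain, differed by -0.14 (-0.50 to 0.23), and Chrdl1, chordin-like 1, a BMP antagonist, by -0.019 (-0.32 to 0.29).

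Some latent TGF-beta binding proteins tether inactive TGF-beta to the matrix. Ltbp1 read 6.08, 6.13 and 5.35 on exposed arrays, against 6.21 and 6.20 on control arrays, a difference of -0.35 (-0.97 to 0.27). Exposed array 3 stood apart, and without it the difference was -0.099. Ltbp3 read 8.19, 8.28 and 7.97, against 8.08 and 8.16 (0.029, -0.32 to 0.38), with full overlap. Ltbp2, which binds microfibrils, and Ltbp4, which also serves elastic fibre assembly, differed by 0.015 (-0.30 to 0.33) and -0.0083 (-0.37 to 0.35).

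Among the 8 SMAD genes the widest difference was that of Smad2. Smad2, which carries TGF-beta and activin signals, read 7.30, 7.21 and 6.86 on exposed arrays, against 7.53 and 7.45 on control arrays. Every exposed array was lower. The difference of Smad2 was -0.37 (-0.78 to 0.042), with 0 inside the interval, and -0.24 without exposed array 3. Its partner Smad3 read 7.51, 7.43 and 7.75, against 7.51 and 7.48 (0.067, -0.29 to 0.42), and Smad4, the common partner, differed by -0.022 (-0.43 to 0.39). Among the SMADs of the BMP branch, Smad9 read 4.64, 4.39 and 4.45, against 4.45 and 4.86 (-0.17, -0.58 to 0.25). Smad1 differed by 0.017 (-0.33 to 0.36) and Smad5 by 0.14 (-0.24 to 0.52). All 8 SMAD genes had intervals that excluded a 2-fold difference (background 92.9%).

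The inhibitory SMADs and the ID genes, which respond to the pathway, showed no separation beyond small values. Smad6, the inhibitory SMAD of the BMP branch and the gene with GTCTAGAC at its start, read 5.97, 5.82 and 6.07 on exposed arrays, against 5.86 and 5.89 on control arrays (0.078, -0.25 to 0.40). Smad7, which blocks both branches, read 3.77, 3.76 and 3.76, against 3.74 and 3.69 (0.051, -0.23 to 0.34). All 5 of its readings were dim. Id1, the best known BMP target of the family, read 7.78, 7.91 and 8.08, against 7.85 and 8.08 (-0.044, -0.42 to 0.33), so that the groups covered the same range. Id3, shown above with 2 CAGAC copies, read 6.76, 6.80 and 6.80, against 6.64 and 7.16 (-0.11, -0.55 to 0.32). The control arrays lay on both sides of the exposed ones, and the difference was -0.37 without control array 1 and 0.15 without control array 2. Id2, an ID gene of many cell types, differed by -0.067 (-0.46 to 0.33). Id4 read 4.82, 4.62 and 4.11, against 4.44 and 4.30 (0.15, -0.40 to 0.70), with exposed arrays above and below. In all 4 ID genes the groups overlapped, where 17.3% of all probe sets did not. The interval of each excluded a 2-fold difference, as for 92.9% of all probe sets.

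**Figure D4:**
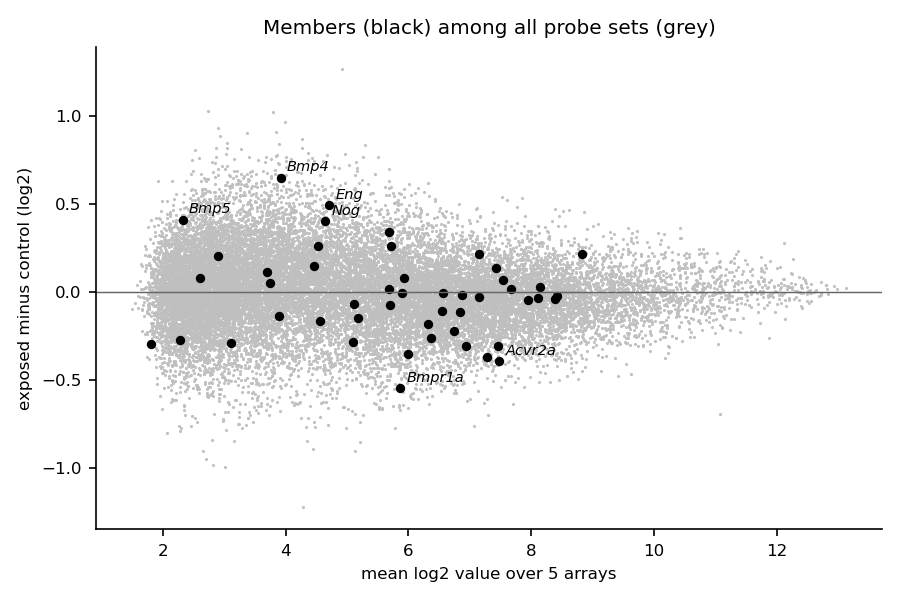
Difference between exposed and control arrays against the mean over 5 arrays (both log2) for the 48 genes (black) and all 22206 probe sets (grey). The named genes are those beyond 0.39 in either direction; Bmp4, at 0.65, lies within the grey cloud of probe sets of similar signal.

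Further genes of the pathway were 99 in number, of which 92 were measured, and limma called 0 of them higher and 0 lower. At an unadjusted p under 0.05 there were 2 (2.17%, background 3.49%), both lower. Bmper, a secreted BMP regulator, read 5.77, 5.67 and 5.48 on exposed arrays, against 6.41 and 5.91 on control arrays (-0.52, -0.99 to -0.057). Fstl5, of the follistatin-like family, read 2.57, 2.31 and 2.62, against 2.80 and 3.39 (-0.60, -1.11 to -0.084) at a dim signal. In both, the exposed arrays were the lower ones, and the controls lay apart. Without control array 1 Bmper differed by -0.27 (unadjusted p 0.19 by limma), and without control array 2 Fstl5 differed by -0.30 (unadjusted p 0.18 by limma). Unadjusted p-values were 0.033 for Bmper and 0.029 for Fstl5, with limma adjusted p 0.93 for each. The widest differences of the other lists did not reach that level. Bmp10, a heart ligand, differed by 0.42 (-0.36 to 1.19), Cfc1, a Nodal co-receptor, by 0.49 (-0.067 to 1.05) and Bmp1, a procollagen protease that also frees BMPs from chordin, by -0.39 (-0.82 to 0.045). Tab1, a partner of the kinase TAK1, differed by -0.45 (-0.95 to 0.045), Tsc22d1, a TGF-beta-stimulated gene, by -0.29 (-0.76 to 0.19) and Sp7, the osterix gene, by -0.28 (-0.68 to 0.12).

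TGF-beta target genes outside the ID family had slightly lower means on exposed arrays. Of the 11103 probe sets that were not dim 6230 were lower, with a median of -0.025. Of the 17 target genes measured 16 were lower and 1, Junb, was higher (0.074), with a median of -0.098. As a list they stood at -0.092 from their 5-array mean on the first exposed array, at -0.024 on the second and at -0.013 on the third, with the controls at 0.097 and 0.033. Every exposed array lay below both controls in 1 of the 17 (5.88%, against 8.84% of all probe sets). That gene was Ccn2, the connective tissue growth factor gene, at 6.08, 6.14 and 5.97 against 6.34 and 6.25 (-0.23, -0.54 to 0.075). Without control array 1 the median was -0.052 and 13 were lower, and without exposed array 1 it was -0.071 and 12 were lower. None passed singly. BMP target genes outside the ID family were 7 higher and 3 lower, with a median of 0.090, beside -0.0004 for all probe sets. Of the 10 measured 4 were dim. The mean of that list was highest on exposed array 1 (0.18 above its 5-array mean), while exposed arrays 2 and 3 were at -0.080 and -0.054, against -0.075 and 0.026 on control arrays.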

How the data were processed

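RNA was measured on 5 arrays, 3 exposed and 2 control. The values the authors deposited are log2 and were made with RMA in Partek per the submitters' processing notes; the versions and the annotation build are not given in the sources used here. RMA subtracts background, quantile normalizes and summarises probes, which compresses differences at low signal. Of 22206 probe sets, 19572 had 1 gene symbol, 0 several and 2634 none.

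From these values limma 3.58.1 in R 4.3.3 (lmFit, eBayes, with no covariate beside group; two-sided; residual df 3, prior df 3.17) gave exposed minus control for all probe sets without a filter, with Benjamini-Hochberg adjustment over all and a threshold of 0.05. The fit was tested on simulated data with planted differences of at least 2-fold. These were wider than the difference of any member, so that test does not cover differences of the size seen here. Reported members are rows of that fit; lists are described by counts and medians. The members and lists were chosen with earlier results of these data known. Values on every array are given for the 2 members of largest difference in each of 10 role groups, members with an unadjusted p under 0.05, and Tgfb1, Tgfbr2, Bmp4, Bmpr1a, Inhbb, Acvr1c, Fst, Smad3, Smad6 and Id1; further ones were chosen after their values were seen. Of other lists, genes with an unadjusted p under 0.05 and the widest difference are named; Ccn2 and Junb were named after their values were seen. Of the listed pathway genes 92 of 99, and of the markers 38 of 43, were measured; the others are not analysed here. Other marker lists (preadipocyte and fibroblast, macrophage, B and plasma cell, osteoblast) had median differences of -0.066, -0.15, 0.027 and -0.051, with 0 genes called. Motifs were searched in RefSeq promoter windows of GRCm38.p6. Alternatives changed the moderation, array weights, scaling, filter, replicate block, the arrays used, the averaging of probe sets and the call threshold.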

Additional observations from a re-analysis of the deposited data

How the results depend on the processing

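The count of members called was 0 under every alternative run, and so was that of further pathway genes. The count over all probe sets was 0 as well, except when calling on a 2-fold difference plus an unadjusted p under 0.05, where 4 probe sets and 0 members passed. After dropping dim probe sets, with 33 members left, 1 member (3.03%) had an unadjusted p under 0.05 and 8 (24.2%) did not overlap, against 2.39% and 18.4% of the probe sets kept. Without 1 exposed array, 21 to 22 members did not overlap (43.75 to 45.8%), against 29.1 to 31.6% of all probe sets. In those fits 3 to 4 members had an unadjusted limma p under 0.05 (6.25 to 8.33%), against 3.42 to 4.23%. Without control array 1, 22 members did not overlap (45.8%, against 44.6% of all probe sets). Without control array 2 it was 28 (58.3%, against 45.1%). Over the 5 fits with 1 array left out, the members' median lay between -0.039 and 0.0095, the last without control array 1. Over all 48 members, 21 changed sign in at least 1 of these 5 fits and 27 did not. Fits with a single control borrow their spread from the exposed arrays. Of the 25 members named by rule, 17 kept their sign in each alternative that held them; the 8 dim ones are absent from the fit without dim probe sets. With 1 array left out, the others ranged from -0.16 to 0.071 (Id1), -0.37 to 0.15 (Id3), -0.0059 to 0.35 (Id4), -0.037 to 0.12 (Ltbp3), -0.026 to 0.13 (Smad3), -0.20 to 0.049 (Inhbb), -0.10 to 0.026 (Tgfbr3) and -0.37 to 0.040 (Smad9); the cause was not tested. Exposed and control arrays share replicate numbers 1 and 2, but nothing shows that these pair the samples: deviations of same-numbered arrays correlated at -0.014 and -0.032. With the replicate block, which leaves exposed array 3 without a partner, 0 members were called, 2 had an unadjusted p under 0.05 (Bmp4 and Tgfbr1), and Smad3 was at -0.026. The block, array weights and the fit without moderation each put Bmpr1a at an unadjusted p above 0.05 (0.085, 0.061 and 0.10), and the block put Bmp5 at 0.063. No member has more than 1 probe set, so averaging probe sets changed nothing. Dim signals limit Bmp5, Bmp7, Bmpr1b and Acvr1c most.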
